A study of Mus musculus with 17 samples.

Results

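Xpo1, Ran and the genes that charge, discharge and recycle Ran were followed through the differentiation of mouse intestinal organoids, with and without an inhibitor of XPO1. The 8 genes are Xpo1, Ran, Rcc1, Rangap1, Ranbp1, Ranbp2, Ranbp3 and Nutf2, and they are 8 of the 26422 gene symbols in the count tables. They were chosen by symbol as the exportin and the core of the Ran cycle, not by their values, and all of them are listed in all 17 libraries.

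XPO1 is the exportin that carries proteins with a leucine-rich nuclear export signal, and several RNAs through adaptors, out of the nucleus, and it binds its cargo only together with the GTP-bound form of the small GTPase Ran. RCC1, which sits on chromatin, loads Ran with GTP in the nucleus. In the cytoplasm RanGAP1, helped by RanBP1 and by the pore protein RanBP2, makes Ran hydrolyse its GTP, the export complex falls apart, and NTF2 (gene Nutf2) carries GDP-bound Ran back into the nucleus. RanBP3 is a nuclear cofactor of XPO1. In an epithelium that renews from cycling stem cells the same GTPase also serves spindle assembly and the rebuilding of the nuclear envelope at mitosis. KPT-330 (selinexor) is a selective inhibitor of nuclear export, or SINE compound, that binds the cargo groove of XPO1, and a rise of XPO1 mRNA is in common use as a sign of exposure to such compounds.

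Organoids grown from small intestinal crypts of wild-type C57BL/6 mice were held in ENR+CV, which is EGF, Noggin and R-spondin 1 with CHIR99021 and valproic acid and enriches for stem cells, and were then moved to ENR+CD, where DAPT replaces valproic acid and the cells turn towards Paneth cells. Single cells were profiled with Seq-Well S3, which captures mRNA on barcoded beads in wells and counts molecules by unique molecular identifiers (UMIs). There were 2 ENR+CV libraries at day 0, 7 control libraries in ENR+CD and 8 libraries in ENR+CD to which KPT-330 was added at 160 nM, the latter groups at days 0.25, 1, 2, 3, 4 and 6. Day 6 had 2 libraries in each condition and day 3 had 2 with KPT-330, and every other condition and day had 1. All groups share EGF, Noggin, R-spondin 1 and CHIR99021, and each library came from organoids of pooled Matrigel domes. The labels do not say whether replicates 1 and 2 were separate cultures or animals, so p-values measure only the spread between these libraries, which may be technical. In comparisons of KPT-330 with control within days, a day with 1 library per condition holds no replicates. Such days add only how the change differs from day to day.

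In the GENCODE annotation Xpo1 (ENSMUSG00000020290) spans 23256041 to 23298249 of chromosome 11 in GRCm38 (mm10), plus strand. Ran lies on chromosome 5 from 129020069 to 129024323 and Nutf2 on chromosome 8 from 105860580 to 105879330, both on the plus strand. Ranbp2 on chromosome 10 from 58446920 to 58494356 and Ranbp3 on chromosome 17 from 56673294 to 56711764 are also on the plus strand. Rcc1 on chromosome 4 from 132331919 to 132353605, Rangap1 on chromosome 15 from 81704248 to 81745530 and Ranbp1 on chromosome 16 from 18239784 to 18248732 are on the minus strand.

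Promoters of the gene that rose with KPT-330 and of 3 Ran-cycle genes whose levels ran together across the libraries are shown so that their sequence features can be set beside the values below. They are RefSeq windows on GRCm38.p6 from 250 bases before to 50 bases after the gene start, written 5′ to 3′ on the gene's own strand, with capitals for the motifs searched. The windows are chr11:23255791-23256090 on the plus strand for Xpo1, chr5:129019906-129020205 on the plus strand for Ran, chr16:18248645-18248944 on the minus strand for Ranbp1 and chr4:132345701-132346000 on the minus strand for Rcc1.
Xpo1: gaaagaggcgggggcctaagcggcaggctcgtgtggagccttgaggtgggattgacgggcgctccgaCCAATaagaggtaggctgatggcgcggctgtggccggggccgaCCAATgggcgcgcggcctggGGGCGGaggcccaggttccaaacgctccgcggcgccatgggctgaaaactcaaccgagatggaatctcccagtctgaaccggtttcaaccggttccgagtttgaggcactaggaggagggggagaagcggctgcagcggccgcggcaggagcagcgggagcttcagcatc
Ran: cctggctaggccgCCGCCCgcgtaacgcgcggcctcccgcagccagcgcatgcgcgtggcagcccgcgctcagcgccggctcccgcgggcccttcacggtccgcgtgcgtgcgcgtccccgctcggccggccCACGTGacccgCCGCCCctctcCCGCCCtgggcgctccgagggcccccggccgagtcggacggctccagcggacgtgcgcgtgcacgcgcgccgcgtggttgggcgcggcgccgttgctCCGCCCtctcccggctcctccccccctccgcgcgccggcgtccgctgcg
Ranbp1: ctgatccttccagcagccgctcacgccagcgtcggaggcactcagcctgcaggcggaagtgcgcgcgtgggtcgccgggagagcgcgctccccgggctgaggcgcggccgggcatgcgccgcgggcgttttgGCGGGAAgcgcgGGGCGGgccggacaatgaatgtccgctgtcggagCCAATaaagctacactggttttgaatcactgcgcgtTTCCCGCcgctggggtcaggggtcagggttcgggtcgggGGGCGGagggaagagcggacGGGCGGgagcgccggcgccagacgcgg
Rcc1: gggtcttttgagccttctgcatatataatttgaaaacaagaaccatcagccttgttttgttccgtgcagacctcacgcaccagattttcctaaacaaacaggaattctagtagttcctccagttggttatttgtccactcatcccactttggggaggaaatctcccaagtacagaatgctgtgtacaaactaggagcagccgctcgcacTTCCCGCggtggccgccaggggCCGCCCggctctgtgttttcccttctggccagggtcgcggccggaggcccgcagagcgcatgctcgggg
The table of promoters held 7 of the 8 genes, Ranbp3 being the exception, in 8 windows since Nutf2 had 2. The letters searched, on both strands, were CCAAT (the CCAAT box), GCGGGAA (an E2F core), CACGTG (an E-box), TGACGTCA (a cAMP response element) and GGGCGG (a GC box), and no matches overlapped in the windows printed. The Xpo1 window held the CCAAT box at 183 and 140 bases before the start, and the Ranbp1 window at 72, where 37.4% of all 32851 windows hold at least 1. The E2F core, present in 4.60% of all windows, occurred 2 times in the Ranbp1 window, at 118 and 36 bases before the start, and 1 time in the Rcc1 window, at 41 bases before it. The E-box, in 7.15% of all windows, was found in those of Ran and Ranbp2. The GC box occurred in 6 of the 8 windows, against 35.7% of all, and the cAMP response element, in 1.79% of all, in none of the 8. The GC content was 66.3% for Xpo1, 82.0% for Ran, 72.0% for Ranbp1 and 54.3% for Rcc1, against a median of 52.7% over all windows. The RefSeq starts of Ran, Ranbp1 and Rcc1 lie downstream of the 5′ ends of the GENCODE genes. The whole Rcc1 window, which starts at 132346000 on the minus strand, lies inside the gene, whose 5′ end is at 132353605. The Rangap1 window is not printed, although Rangap1 ran with Ran, Ranbp1 and Rcc1 too. It held a GC box and no E2F core, and it lies inside its gene, at 81729870 to 81730169 against a 5′ end at 81745530. The matches describe letters in the windows and do not show binding.

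Over the 19877 cells kept, libraries held 531 to 1547 cells and 3458887 to 12433109 UMIs, with a median per cell of 2676 to 8463 UMIs. A level is the number of UMIs of a gene per 10000 UMIs of the library or of one cell type in it. Changes are on the log2 scale from edgeR fits of summed counts, with their standard errors (SE) and p-values adjusted over all genes tested, and a gene is called where its adjusted p is under 0.05. The labels name no cell types: cells were clustered with the 8 genes kept out of the variable genes, and a cluster was called, for example, stem III-like from its markers. The study named its stem types I, II and III after stem cell subsets known from mice, and stem III is the cycling one. The 1321 cells of 1 cluster stayed unnamed. In values over all cells of a library, fewer cells of a type and less RNA per cell cannot be told apart. At these depths Xpo1 had 298 to 2289 UMIs per library, Ranbp2 647 to 2253, Ran 71 to 776, Rcc1 28 to 561 and Nutf2 9 to 97, so the last is the least precisely measured. Exact (Clopper-Pearson) 95% intervals given below cover counting error only.

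The first question was how the exportin itself and the Ran cycle responded to the XPO1 inhibitor. Xpo1 rose with KPT-330 at every day, already at day 0.25, while Rcc1 and Ranbp1 fell over all cells of the libraries and the other 5 genes were not called. In the ENR+CV libraries Xpo1 stood at 1.69 and 1.56 UMIs per 10000. In the control libraries it stood at 1.69 at day 0.25, 1.07 at day 1, 0.656 at day 2, 0.607 at day 3, 0.716 at day 4 and 0.664 and 0.672 at day 6. With KPT-330 it stood at 5.01, 2.50, 1.72, 1.73 and 1.65, 1.35, and 1.03 and 1.69 at the same days in order. Every KPT-330 library was above the control libraries of its own day, although the lowest of them, at day 6, was under the control value of day 0.25. The shallowest of these measurements, replicate 2 of control day 6, rested on 298 UMIs, with an interval of 0.598 to 0.753. In edgeR, with a term for day, Xpo1 rose by 1.504 ± 0.086 (SE, 15 libraries), a 2.84-fold change with an adjusted p of 7.76e-07, where 14.4% of 12812 genes were called higher and 14.2% lower.

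**Figure D1:**
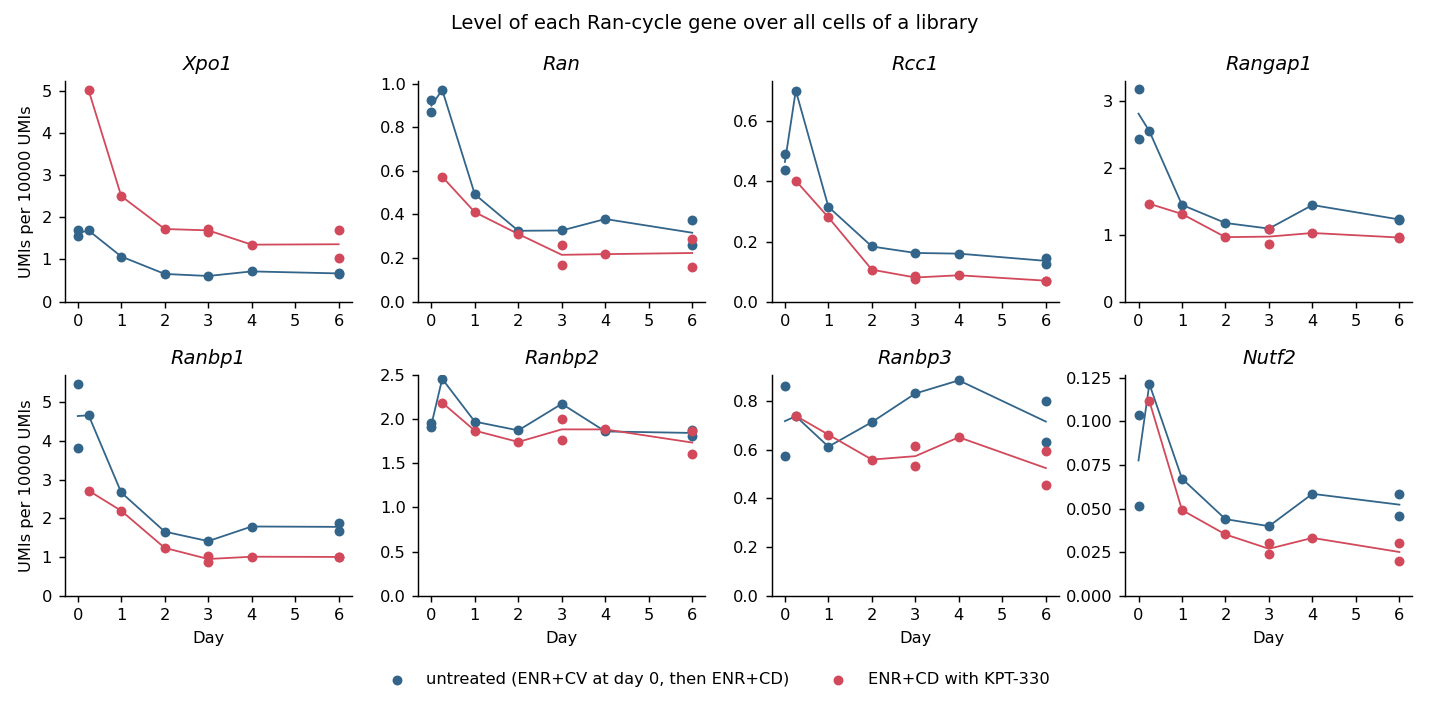
Each panel plots one gene's level over all cells of a library (UMIs per 10000 UMIs, linear axis from 0) against the day, with blue points for untreated libraries (ENR+CV at day 0, then ENR+CD) and red points for ENR+CD with KPT-330, and lines through the mean of each day. The red Xpo1 points lie above the blue ones at all 6 days, while for Ran, Rcc1, Rangap1, Ranbp1 and Nutf2 the mean of the red points lies below that of the blue ones at all 6 days.

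The day-by-day ratio of Xpo1 levels ran from 1.89 at day 4 to 2.97 at day 0.25, and all 6 days were higher (exact permutation test flipping the signs of days, two-sided, p = 0.0312, the smallest that 6 days allow). The effect at days 3 to 6 differed from that at days 0.25 to 2 by 0.010 ± 0.17 on the log2 scale (adjusted p = 0.992 in edgeR), so a difference between early and late effects was not detected. None of the 8 genes was called in that comparison and 0 had an unadjusted p under 0.05, where 0% of all 12812 genes were called, 1333 had an unadjusted p under 0.05 and DESeq2 called 40.

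Rcc1, the exchange factor that makes RanGTP, stood at 0.703 UMIs per 10000 at day 0.25, 0.316 at day 1, 0.184 at day 2, 0.162 at day 3, 0.1597 at day 4 and 0.125 and 0.147 at day 6 in control. With KPT-330 the values were 0.403, 0.280, 0.106, 0.0756 and 0.0849, 0.0876, and 0.0694 and 0.0700. Each was below the control libraries of its day, and Rcc1 fell by 0.54 ± 0.10 on the log2 scale (adjusted p = 0.00268 in edgeR). Ranbp1, the cytoplasmic co-activator of RanGAP1, stood at 4.66, 2.67, 1.66, 1.41, 1.79, and 1.88 and 1.67 in control and at 2.72, 2.19, 1.24, 1.03 and 0.867, 1.01, and 0.996 and 1.01 with KPT-330. It fell by 0.37 ± 0.094 (adjusted p = 0.0105 in edgeR), again with no overlap between conditions within a day.

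Ran itself stood at 0.972, 0.4926, 0.325, 0.327, 0.379, and 0.258 and 0.374 in control and at 0.573, 0.411, 0.310, 0.169 and 0.261, 0.218, and 0.159 and 0.287 with KPT-330. The 2 conditions overlapped at day 6, and the fitted log2 change was -0.25 ± 0.12 (adjusted p = 0.150 in edgeR). Rangap1, the GTPase activator, ranged from 1.09 to 2.55 in control and from 0.866 to 1.47 with KPT-330, with a log2 change of -0.09 ± 0.11 (adjusted p = 0.565 in edgeR). Nutf2, the importer of Ran, ranged from 0.0399 to 0.122 in control and from 0.0202 to 0.112 with KPT-330, with a log2 change of -0.31 ± 0.15 (adjusted p = 0.126 in edgeR). Its lowest value rested on 9 UMIs, with an interval of 0.00922 to 0.0383.

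Ranbp2, the pore protein that holds SUMO-modified RanGAP1 and releases export complexes, was the steadiest of the 8 genes, between 1.81 and 2.46 UMIs per 10000 in control and between 1.61 and 2.19 with KPT-330, with a log2 change of 0.16 ± 0.081 (adjusted p = 0.145 in edgeR). Ranbp3 ranged from 0.613 to 0.885 in control and from 0.455 to 0.740 with KPT-330, with a log2 change of -0.05 ± 0.072 (adjusted p = 0.644 in edgeR). In ratios of levels Rcc1, Ranbp1, Ran, Rangap1 and Nutf2 were lower at 6 of 6 days (the same exact permutation test, p = 0.0312 for each of these 5 genes among the 8 tested, unadjusted), Ranbp2 at 5 and Ranbp3 at 4. How many of all genes were lower at 6 of 6 days was not counted, so these counts cannot be set against a share.

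These ratios are on the scale of library totals, on which the median of all 12812 genes moved by -0.27 with KPT-330 against -0.002 with the TMM factors used in the fits. With library totals as the scaling 7 of the 8 genes were called and the sign of Ranbp2 turned to -0.11 (adjusted p = 0.270 in edgeR), so the direction given for Ranbp2 depends on the scaling. The number of all genes called with that scaling is not given here, so the 7 cannot be set against a share. The 20 most abundant genes took 25.9% to 34.2% of the UMIs in control libraries and 28.3% to 49.6% with KPT-330. The summed level of the 11 stem III markers, of which all were detected in every library, ranged from 7.37 to 44.1 UMIs per 10000 in control and from 2.35 to 33.7 with KPT-330 and was lower with KPT-330 at 6 of 6 days, by ratios of 0.331 to 0.830. The part of the lower share of stem III markers in the lower Rcc1 and Ranbp1 of whole libraries was not tested.

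**Figure D2:**
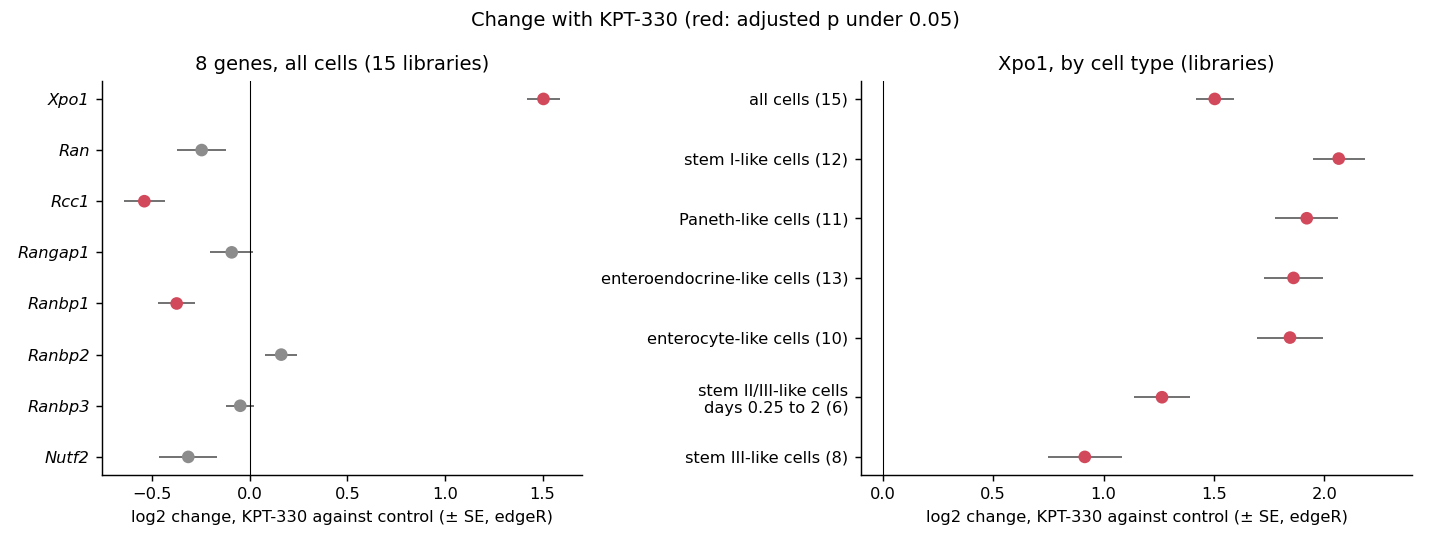
Points are log2 changes with KPT-330 against control from edgeR and bars are 1 SE, on the left for the 8 genes over all cells and on the right for Xpo1 over all cells and within cell types, with the number of libraries in brackets and red for an adjusted p under 0.05. Xpo1 is the only gene of the 8 called higher, and its change runs from 0.92 in stem III-like cells to 2.07 in stem I-like cells.

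The next question was in which cell types Xpo1 rose. Xpo1 was called higher in each of the 6 cell type groups tested and was the only one of the 8 genes called in any of them. In stem II/III-like cells of days 0.25 to 2 it rose by 1.27 ± 0.13 on the log2 scale (adjusted p = 3.52e-05 in edgeR, 6 libraries), where 0.784% of genes were called higher. In stem I-like cells it stood between 0.736 and 0.981 UMIs per 10000 in 6 control libraries and between 3.14 and 3.72 in 6 KPT-330 libraries. The groups did not overlap, and the change was 2.07 ± 0.12 (adjusted p = 1.04e-12 in edgeR), where 2.54% of genes were called higher. In Paneth-like cells the level was 0.250 to 0.360 in 5 control libraries and 0.912 to 1.59 in 6 KPT-330 libraries, a change of 1.92 ± 0.14 (adjusted p = 3.95e-07 in edgeR), where 2.30% of genes were called higher. In enteroendocrine-like cells Xpo1 rose by 1.86 ± 0.13 (adjusted p = 2.32e-07 in edgeR, 13 libraries), where 0.864% of genes were called higher. In enterocyte-like cells it rose by 1.85 ± 0.15 (adjusted p = 6.50e-06 in edgeR, 10 libraries), where 0.663% were.

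The cycling stem III-like cells had the smallest change. At days 0.25, 1, 2 and 3 Xpo1 stood in them at 1.99, 1.93, 2.22 and 2.14 UMIs per 10000 in control and at 5.57, 3.28, 3.58 and 2.395 with KPT-330, so that the ratio went from 2.80 at day 0.25 to 1.12 at day 3, when the KPT-330 library held 24 such cells. The fitted change was 0.92 ± 0.17 (adjusted p = 0.0143 in edgeR, 8 libraries), where 0.363% of genes were called higher. This fit and that of stem II/III-like cells held 1 library per condition and day. Their spread is that of the change between days, without replicates. The call was lost without either library of day 0.25 (0.64, adjusted p = 0.383), of day 1 (0.94, adjusted p = 0.133) or of day 2 (0.97, adjusted p = 0.122), each of which removes a day from the fit. Counting all types, early secretory-like, early enterocyte-like and early Paneth-like cells and the unnamed cluster included, there were 38 pairs of a cell type and a day with at least 20 cells in each library compared, over 10 groups of cells. In 38 of these 38 pairs every KPT-330 library was above every control library. At days with 1 library in each condition this means only a ratio above 1. The pairs of a day come from the same libraries and are not independent. How many of all genes did the same was not counted, so the 38 cannot be set against a share. The ratios were 3.53 to 4.33 over 5 days in stem I-like cells, 2.75 to 6.06 over 4 days in Paneth-like cells and 2.56 to 3.47 over 3 days in stem II-like cells.

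Among the other 7 genes, those that passed the filter on low counts within a cell type (Nutf2 passed it in Paneth-like and stem II/III-like cells only) were not called in any of the 6 groups by edgeR, and DESeq2 also called none of them. In stem II/III-like cells their log2 changes lay between -0.36 and 0.04 with a smallest adjusted p of 0.218. There 2 of them, Rangap1 (-0.36 ± 0.13) and Ranbp1 (-0.34 ± 0.12), had an unadjusted p under 0.05, against 14.1% of all 9950 genes. In the other 5 groups 0 of them did. The changes lay between -0.30 and 0.03 in stem III-like cells, between -0.20 and 0.16 in stem I-like cells and between -0.18 and 0.17 in enteroendocrine-like cells. They were widest in enterocyte-like cells, from -0.62 for Rcc1 to 0.32 for Rangap1, and in Paneth-like cells, from -0.47 for Rcc1 to 0.11 for Ranbp2. Within stem III-like cells the summed markers of the type were lower with KPT-330 at 2 of the 4 days with such cells in both conditions, with ratios of 0.743 to 1.07. At day 0.25 the pooled stem II/III-like group held 508 stem III-like and 441 stem II-like cells in control. With KPT-330 it held 190 and 534, and the part of this shift in the values of Rangap1 and Ranbp1 was not tested.

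Whether the rise of Xpo1 differed between cell types was tested between Paneth-like and stem III-like cells of the same libraries. The rise in Paneth-like cells exceeded that in stem III-like cells by 1.76 ± 0.24 on the log2 scale (adjusted p = 0.00058 in edgeR, 7 libraries), where 0.334% of genes were called in either direction, and no other gene of the 8 was called. The KPT-330 side of this comparison is 2 libraries, day 2 and replicate 1 of day 3. The control side is 5 libraries of days 2, 3, 4 and 6. The fit has no term for how the gap between the cell types changes with day, so day is part of the difference. Values with days 2 and 3 only are given below. At day 2 Xpo1 went from 0.352 in control to 1.36 with KPT-330 in Paneth-like cells and from 2.22 to 3.58 in stem III-like cells, and at day 3 from 0.250 to 1.59 and from 2.14 to 2.395. Without replicate 1 of KPT-330 day 3 the difference was 1.35 (adjusted p = 0.0942), and with enteroendocrine-like cells in place of Paneth-like cells it was 1.32 ± 0.25 (adjusted p = 0.290).

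The second question was how the exportin and the Ran cycle changed as untreated organoids differentiated. Xpo1, Ran, Rcc1, Rangap1 and Ranbp1 fell together over all cells between days 0 to 1 and days 3 to 6, while Ranbp2 and Ranbp3 were not called. The early libraries include those in ENR+CV and are mostly replicate 1, while the late ones are mostly replicate 2. Files of the early replicate 1 libraries list 21001 to 21652 genes and those of the other libraries compared 16266 to 17849. Day is thus tied in part to medium and replicate number, and the part of medium was not tested. Xpo1 stood at 1.69, 1.56, 1.69 and 1.07 UMIs per 10000 in the 4 early libraries and at 0.607, 0.716, 0.664 and 0.672 in the 4 late ones. Those groups did not overlap, and Xpo1 fell by 1.13 ± 0.16 on the log2 scale (adjusted p = 0.000196 in edgeR), where 24.6% of 12131 genes were called lower and 24.1% higher. Ran went from 0.873, 0.927, 0.972 and 0.4926 to 0.327, 0.379, 0.258 and 0.374, again without overlap, and fell by 1.26 ± 0.20 (adjusted p = 0.000399 in edgeR). Rcc1 had the largest change of the 8 genes, from between 0.316 and 0.703 to between 0.125 and 0.162, and fell by 1.69 ± 0.23 (adjusted p = 0.000152 in edgeR). Ranbp1 went from between 2.67 and 5.47 to between 1.41 and 1.88 and fell by 1.24 ± 0.20 (adjusted p = 0.000417 in edgeR). Rangap1 went from between 1.45 and 3.19 to between 1.09 and 1.45, so that the groups touched without overlapping, and fell by 0.89 ± 0.19 (adjusted p = 0.0026 in edgeR).

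Nutf2 overlapped between the groups, with a log2 change of -0.74 ± 0.30 that missed the threshold (adjusted p = 0.0549 in edgeR) and passed it in DESeq2. DESeq2 called 6 of the 8 genes, and the number of all genes it called is not given here, so the 6 cannot be set against a share. Ranbp2 changed by -0.07 ± 0.14 (adjusted p = 0.71 in edgeR) and Ranbp3 by 0.22 ± 0.13 (adjusted p = 0.195 in edgeR). The summed stem III markers stood at 19.1 to 45.2 UMIs per 10000 in the early libraries and at 7.37 to 10.5 in the late ones, and their part in these changes was not tested, while the same comparison within stem III-like cells gives the values that follow. These time comparisons use the same control libraries as those with KPT-330.

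Within stem III-like cells the 5 genes that fell over all cells were not called. Xpo1 stood there at 2.43, 1.89, 1.99 and 1.93 UMIs per 10000 in the early libraries and at 2.14, 2.64, 2.68 and 2.95 in the late ones, a log2 change of 0.23 ± 0.16 (adjusted p = 0.344 in edgeR). Ran, Rcc1, Rangap1, Ranbp1 and Ranbp2 changed by -0.21 to 0.13, with a smallest adjusted p of 0.605. The summed stem III markers in these cells stood at 55.2 to 68.7 UMIs per 10000 early and at 86.5 to 105 late, without overlap, and the part of this shift in the values of the 8 genes was not tested. Ranbp3 was the exception among them, at 0.723, 0.941, 0.843 and 0.741 early and at 1.11, 1.34, 1.21 and 1.45 late. Those groups did not overlap, and it rose by 0.54 ± 0.16 (adjusted p = 0.0301 in edgeR), where 7.22% of genes were called higher, although the call held in 6 of 15 alternatives. The late libraries held 49 to 67 stem III-like cells each.

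**Figure D3:**
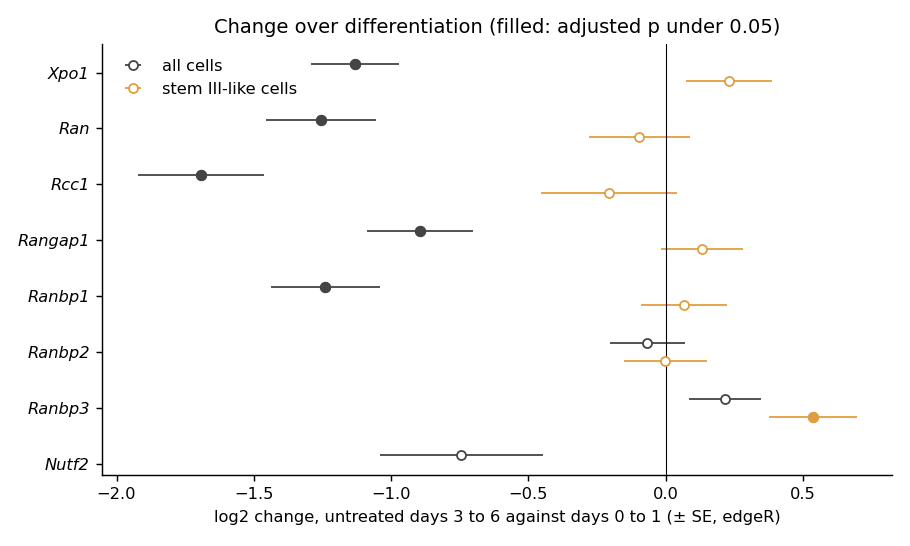
Points are log2 changes in untreated libraries of days 3 to 6 against days 0 to 1 from edgeR, bars are 1 SE, black marks all cells and orange stem III-like cells, and filled points have an adjusted p under 0.05. Over all cells 5 of the 8 genes lie between -0.89 and -1.69, while in stem III-like cells the points lie between -0.21 and 0.54 (Nutf2 was not tested there).

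The third question was where the genes stand among cell types. Xpo1 was highest in stem III-like cells, at 2.32 ± 0.37 UMIs per 10000 (SD, n = 9 untreated libraries), then at 1.37 ± 0.20 in stem II-like cells (n = 8). Enteroendocrine-like cells followed at 0.934 ± 0.21 (n = 8), stem I-like cells at 0.860 ± 0.12 (n = 6), early enterocyte-like cells at 0.849 ± 0.20 (n = 4) and early secretory-like cells at 0.777 ± 0.12 (n = 4), and neighbours among these 4 did not differ beyond their SD. Early Paneth-like cells at 0.360 ± 0.063, Paneth-like cells at 0.333 ± 0.047 and enterocyte-like cells at 0.283 ± 0.055 (n = 5 each) were lowest, and neighbours in this order did not differ beyond their SD. The gaps between stem III and stem II, between stem II and enteroendocrine, and between early secretory and early Paneth were larger than the SD on either side. The highest mean was 8.20 times the lowest in untreated libraries and 4.26 times with KPT-330, where stem II-like (4.00 ± 1.13), stem III-like (3.71 ± 1.34) and stem I-like cells (3.36 ± 0.23) overlapped.

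Stem III-like cells were also highest for Ran (1.03 ± 0.16), Rcc1 (0.695 ± 0.17), Rangap1 (3.79 ± 0.53) and Ranbp1 (5.98 ± 0.83), each per 10000 UMIs with n = 9. The ratio of the highest to the lowest mean was 12.1 for Ranbp1, 8.97 for Rcc1, 6.87 for Rangap1 and 4.99 for Ran. Ranbp2 differed least among the types, from 2.50 ± 0.22 in stem III-like to 1.41 ± 0.16 in enterocyte-like cells, a ratio of 1.77. Ranbp3 was highest in enteroendocrine-like cells, at 1.20 ± 0.31 (n = 8), which did not differ beyond the SD from stem III-like cells at 1.05 ± 0.26. Nutf2 was highest in stem III-like cells at 0.118 ± 0.085, with a spread nearly as large as its mean.

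**Figure D4:**
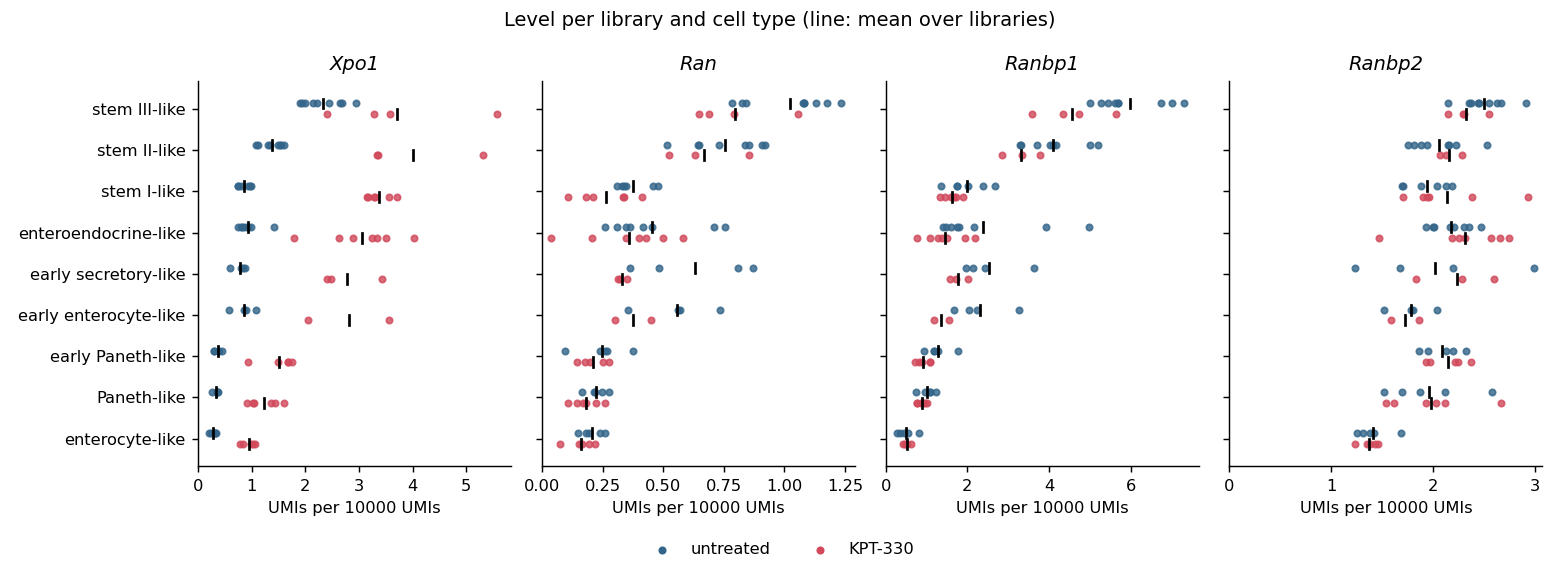
Points are levels (UMIs per 10000 UMIs, linear axes from 0) of Xpo1, Ran, Ranbp1 and Ranbp2 in each library with at least 20 cells of a type, blue for untreated and red for KPT-330, and black lines are means over libraries. Xpo1 is shifted to the right by KPT-330 in all 9 cell types shown, the means of Ran and Ranbp1 are lower in enterocyte-like than in stem III-like cells in both conditions, and Ranbp2 is spread least among the types.

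Against the non-stem cells of the same 9 untreated libraries, all 8 genes were called higher in stem III-like cells, where 27.4% of 11264 genes were. The log2 differences were 1.96 ± 0.19 for Rcc1, 1.74 ± 0.12 for Ranbp1, 1.73 ± 0.13 for Xpo1, 1.42 ± 0.080 for Rangap1 and 1.29 ± 0.12 for Ran, with adjusted p-values of 5.63e-07 or less in edgeR. They were 1.12 ± 0.30 for Nutf2 (adjusted p = 0.00567), 0.45 ± 0.078 for Ranbp3 (adjusted p = 0.000191) and 0.19 ± 0.078 for Ranbp2 (adjusted p = 0.0472). The call of Ranbp2 held in 3 of 16 alternatives. Stem III-like cells stood above each other type of the same library in 51 of 51 comparisons for Xpo1, Ran, Rangap1 and Ranbp1, in 50 for Rcc1, 47 for Ranbp2, 44 for Ranbp3 and 39 for Nutf2. The types were defined on the same cells, so these p-values are not independent of the clustering, and the list of stem III markers that the study made from these libraries holds Ranbp1 and Rangap1, which were not among the markers used here.

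Other carriers of the same transport system were taken as lists. Of 11 importin beta family importers, the receptors that RanGTP empties in the nucleus, 4 fell with KPT-330 over all cells and 0 rose, where 14.2% of all genes were called lower and 14.4% higher, with a median log2 change of -0.11 against -0.002 over all genes. They were Kpnb1 (importin beta itself, -0.46 ± 0.10, adjusted p = 0.00559), Ipo5 (-0.39 ± 0.084, adjusted p = 0.00536), Ipo11 (-0.37 ± 0.085, adjusted p = 0.00707) and Ipo9 (-0.33 ± 0.094, adjusted p = 0.0205), all in edgeR. Of 5 importin alpha adaptors, which link classical import signals to importin beta, Kpna4 fell (-0.41 ± 0.098, adjusted p = 0.00824) and Kpna2 rose (1.42 ± 0.41, adjusted p = 0.0197), the latter at a mean abundance of -0.07 log2 CPM and not tested within cell types. Of 6 other exportins, Xpo6, which exports profilin and actin, rose by 0.20 ± 0.066 (adjusted p = 0.036 in edgeR) and 0 fell, but with library totals as the scaling the change of Xpo6 was -0.07 ± 0.095 (adjusted p = 0.571), so its direction depends on the scaling. Of 9 XPO1 cargo adaptors and docking nucleoporins, Ncbp1, the larger subunit of the nuclear cap-binding complex, fell (-0.28 ± 0.088, adjusted p = 0.0274 in edgeR).

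In stem II/III-like cells of days 0.25 to 2 no gene of these lists was called by edgeR and 9 of 30 tested had an unadjusted p under 0.05, against 14.1% of all 9950 genes, Kpnb1 with a log2 change of -0.52 ± 0.14 (adjusted p = 0.0761). In stem I-like cells 2 of 11 importin beta family importers fell, Ipo5 by 0.62 ± 0.13 (adjusted p = 0.00502 in edgeR) and Ipo7 by 0.60 ± 0.16 (adjusted p = 0.0308 in edgeR), where 1.58% of genes were called lower, and Ipo7 is named after its values were seen. Over untreated differentiation 7 of 11 importin beta family importers, 4 of 6 other exportins, 6 of 9 adaptors and nucleoporins and 1 of 4 tested importin alpha adaptors fell over all cells, and 0 rose, where 24.6% of all genes were called lower and 24.1% higher, with medians between -0.63 and -0.26 against 0.015 over all genes.

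**Figure D5:**
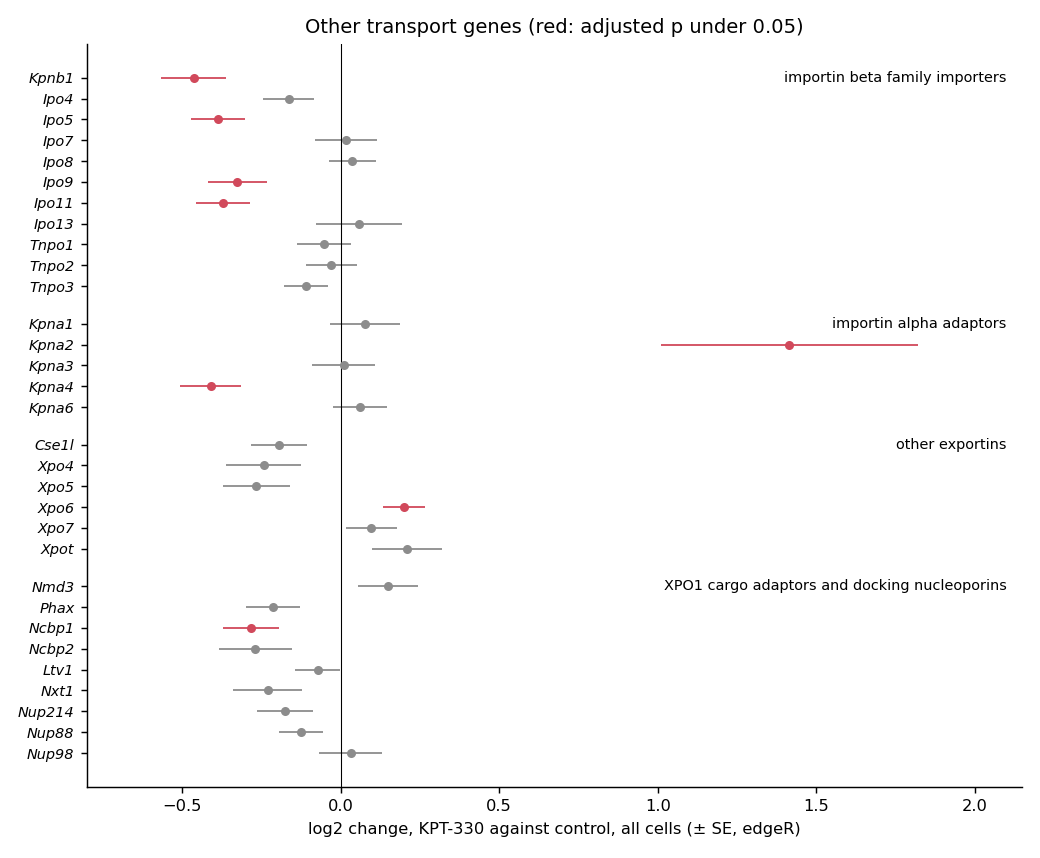
Points are log2 changes with KPT-330 against control over all cells from edgeR for other transport genes grouped in 4 lists, bars are 1 SE, and red marks an adjusted p under 0.05. Kpna2 stands apart from the other points, which lie between -0.46 and 0.21, at 1.42 with the widest bar.

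Some of the 8 genes share sequence with other genes, which the counting could have split or merged. Near copies of at least 300 bases at 90% identity or more were found for Ran (3), Ranbp1 (2), Ranbp2 (11) and Nutf2 (4) and for none of Xpo1, Rcc1, Rangap1 and Ranbp3, so the values of the first 4 are less certain. The closest copy of Ran in the count tables, Rasl2-9, matched 1020 bases at 92.1% and had 1 to 12 UMIs per library. Nutf2-ps1, which is also in the count tables, matched Nutf2 over 868 bases at 100%. Whether reads of Nutf2 were split with this copy or lost was not tested. Rcc1 shares 5592 bases and its strand with Snhg3, a host of small nucleolar RNAs that had 47 to 400 UMIs per library. Ranbp1 shares 3518 bases and its strand with Gm49776, which is not among the symbols counted. Rangap1 overlaps Zc3h7b and Ranbp1 overlaps Trmt2a on the opposite strand, by 474 and 54 bases, and whether the counting used strand is not given in the sources used here.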

How the data were processed

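Seq-Well S3 libraries of 17 organoid samples were analysed. Reads were demultiplexed by the authors in bcl2fastq and aligned to mm10 in STAR, molecules were counted per barcode in the Drop-seq pipeline, and the deposited values are UMI counts per gene and cell without normalization. The annotation and the use of strand are not given in the sources used here. The 19877 cells that the authors kept, of 26229 barcodes in the files, were used, and their merged table served only to list those cells, since 0 of 159016 values of the 8 genes differed. The authors' doublet calls were not repeated. Of 136 pairs of libraries 14 shared a cell barcode, 1 each.

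Cells were normalized with SCTransform (Seurat 5.3.0, sctransform 0.4.2), 3000 variable genes less 10 listed genes, 4 of the 8 among them, and clustered (9 components, 20 neighbours, resolution 0.45) into 17 clusters, named from 102 markers in 10 lists. Counts were summed per library, or per library and cell type with at least 20 cells, since cells are not replicates. They were tested with edgeR 4.0.16 (R 4.3.3, quasi-likelihood test, TMM, filterByExpr, Benjamini-Hochberg over all genes tested, threshold 0.05), with day as a factor for KPT-330 and library as a factor between cell types. Comparisons over time left out the untreated library of day 2. Sign-flip tests and the correlation between same-numbered libraries at day 6 were run in R, and intervals in Python 3.11.15. The steps were tested on simulated data.

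All 8 genes are given in every comparison. Of other lists, members past the threshold over all cells or in stem II/III-like cells are named, at most 5 per list by smallest p, and for likeness the 5 genes most correlated with Xpo1 and with Ran. Some genes that this rule selects are not reported here. The genes and lists were chosen with earlier results of these data known. Alternatives were DESeq2 1.42.0, RLE factors, library totals, no filter, mean log values in limma 3.58.1, Louvain resolution 0.8, marker scores, the replicate block and leaving out each library.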

Additional observations from a re-analysis of the deposited data

Results flagged for a closer look

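Ranbp2 over all cells stood highest in control day 0.25 replicate 1 among the 4 untreated libraries of days 0 to 1, at 2.46 UMIs per 10000 against 1.92 to 1.97 in the other 3, a gap of 0.898 of the whole range. Of 32 groups searched for such a library this was the only one found, and chance alone gives about 1 in 20 groups.

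The rise of Xpo1 with KPT-330 differed between cell types in a test of the difference itself, by 1.76 on the log2 scale between Paneth-like and stem III-like cells (edgeR, adjusted p = 0.00058), with the 2 KPT-330 libraries and the values without replicate 1 of day 3 given above.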

How the results depend on the processing

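Of 90 values for the 8 genes 24 were called, and over 395 alternatives of these 365 kept direction and call, 30 kept direction only and 0 turned. Of 1086 alternatives of values not called, 15 passed the threshold, 103 had the opposite sign, and 0 did both. Xpo1 was higher with KPT-330 in 120 of 120 alternatives and called in 114. The sign-flip test over days is among the alternatives counted here and entered with its unadjusted p. That p was 0.0312 for Xpo1, Ran, Rcc1, Rangap1, Ranbp1 and Nutf2, so these tallies mix adjusted and unadjusted values. Where a value turned or a call was lost the cause was not tested. Scaling by library totals, stem I-like or enteroendocrine-like cells in place of Paneth-like cells and days 2 and 3 only were chosen after seeing the data. By library totals, the other transport genes named kept their direction and call with KPT-330 over all cells except Xpo6 and Ipo7. Xpo6 turned to -0.069, and Ipo7 turned from 0.016 (adjusted p = 0.92 in edgeR) to -0.25 (adjusted p = 0.0245 in edgeR). On that scale 9 of 11 importin beta family importers were called lower, where the median of all genes moved by -0.27. The share of all genes called lower on it is not given here, so the 9 cannot be read as particular to importers. Nutf2 (9 to 97 UMIs, with an identical stretch in a counted copy) and cell types with few cells are the most limited by low counts.

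Numbers of all genes called are given first as in the report and then under alternatives. For stem II/III-like cells 123 became 22 in DESeq2, 185 at Louvain resolution 0.8, 74 with the highest marker score per cell and 314 without a filter. For stem III-like cells 39 became 15 in DESeq2, 25 at resolution 0.8 and 120 without a filter. For Paneth-like cells 415 became 273 in DESeq2, 228 at resolution 0.8, 159 by marker score, 662 by library totals and 702 without a filter. For enteroendocrine-like cells 198 became 466 without a filter. For late minus early effects 0 became 40 in DESeq2, 1 by library totals and 349 without a filter. For Paneth-like minus stem III-like effects 31 became 19 in DESeq2, 17 at resolution 0.8, 10 by marker score, 90 without a filter, 5 with stem I-like cells, 13 with days 2 and 3 only and 0 with enteroendocrine-like cells, where 0 of the 8 genes was called too. Xpo1 differed there by 1.60 ± 0.19 with stem I-like cells (adjusted p = 1.18e-05) and by 1.92 ± 0.34 with days 2 and 3 only (adjusted p = 0.0038). Over all cells with KPT-330, 3661 became 6345 from mean log values per cell in limma.

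Of the 8 genes, 7 were called with KPT-330 over all cells both by library totals and from mean log values per cell, in place of 3. From mean log values 6345 of 12812 genes were called. By library totals the median of all genes moved by -0.27, and the number of all genes called is not given here. In stem III-like cells over time 1 became 0 in DESeq2, without a filter, by marker score and with the replicate block. Ranbp2 with KPT-330 over all cells turned to -0.11 by library totals, -0.12 from mean log values and -0.11 as the mean of day ratios (exact permutation test, p = 0.0625). Rcc1 in enteroendocrine-like cells turned from -0.00035 to 0.042 in DESeq2, 0.0016 with RLE factors and 0.26 by marker score, where Rangap1 turned to -0.028, and to -0.0050 by library totals. In Paneth-like cells Ran turned to 0.064 and Ranbp3 to 0.034 at resolution 0.8, Ranbp3 to 0.11 by marker score and 0.0036 without a filter, and Ranbp2 to -0.044 by library totals. In stem I-like cells Rcc1 turned to 0.024 at resolution 0.8 and Rangap1 to 0.036 by marker score. In stem III-like cells Ranbp3 turned to -0.045 by marker score and -0.015 by library totals. For late minus early effects Xpo1 turned to -0.0062 in DESeq2, -0.0059 with RLE factors, -0.0058 without a filter and -0.26 by library totals, as did Ran to -0.23 and Ranbp1 to -0.25. For Paneth-like minus stem III-like effects Ran turned to 0.0010 by marker score. In stem III-like cells over time Ranbp2 turned to 0.050 at resolution 0.8, 0.065 by marker score and 0.10 by library totals, and Ran to 0.0037 by library totals.

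Replicate numbers could pair libraries only at day 6, where the deviations of same-numbered libraries correlated at 0.404 over 12812 genes, with too few pairs to decide. With the replicate block Xpo1 changed by 1.503 with KPT-330 over all cells, 3 of the 8 genes and 3957 genes in all were called there and 5374 over time, Ranbp1 in late minus early effects turned to -0.015, and Ranbp2 over time to 0.018 over all cells and 0.096 in stem III-like cells, where Ranbp3 was not called (0.48, adjusted p = 0.0875). The block was not tried in the other comparisons, those within cell types with KPT-330 included.

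Leaving out each library in turn gave 2092 to 3969 genes called over all cells with KPT-330 (fewest without control day 3, then 2420 without either library of day 4), 19 to 356 in stem II/III-like cells (fewest without day 0.25, most without day 2), 8 to 86 in stem III-like cells (without day 0.25 and day 3), 201 to 406 in stem I-like cells (fewest without day 4), 88 to 183 in enterocyte-like cells (fewest without control day 3), 104 to 668 in Paneth-like cells (without day 4 and without replicate 1 of KPT-330 day 3) and 125 to 271 in enteroendocrine-like cells (fewest without day 4). It gave 0 to 16 for late minus early effects (most without replicate 1 of KPT-330 day 3), 6 to 78 for Paneth-like minus stem III-like effects (without replicate 1 of KPT-330 day 3 and control day 2) and 785 to 1411 in stem III-like cells over time (fewest without control day 4). Called among the 8 genes were 0 to 1 in stem III-like cells, 0 to 1 for Paneth-like minus stem III-like effects and 0 to 1 in stem III-like cells over time. The last call, of Ranbp3, ended without ENR+CV replicate 1, control day 1, control day 4 or either control day 6 library, with adjusted p-values up to 0.0927. The call of Ranbp2 in stem III-like against non-stem cells ended without any one of the 9 libraries except control day 3, with changes of 0.15 to 0.21.

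The sign of these uncalled log2 changes also turned without single libraries. With KPT-330 they ranged from -0.15 to 0.0043 for Rangap1 over all cells, and in Paneth-like cells from -0.47 to 0.080 for Nutf2, -0.29 to 0.17 for Ran, -0.18 to 0.048 for Ranbp1 and -0.081 to 0.077 for Ranbp3. They ranged from -0.023 to 0.12 for Rangap1 and -0.14 to 0.18 for Rcc1 in enteroendocrine-like cells, from -0.22 to 0.089 for Ranbp3, -0.099 to 0.037 for Rangap1 and -0.067 to 0.073 for Rcc1 in stem I-like cells, and from -0.078 to 0.099 for Ranbp3 in stem III-like cells. In stem II/III-like cells they ranged from -0.46 to 0.086 for Ran, -0.073 to 0.11 for Ranbp3 and -0.53 to 0.029 for Rcc1. Late minus early effects ranged from -0.12 to 0.094 for Xpo1, -0.22 to 0.24 for Ran, -0.16 to 0.12 for Ranbp1 and -0.24 to 0.11 for Rcc1. Paneth-like minus stem III-like effects ranged from -0.49 to 0.019 for Ran, -0.061 to 0.34 for Ranbp1 and -0.096 to 0.33 for Ranbp3, and from 1.35 to 2.22 for Xpo1 without a turn. Over time Ranbp2 ranged from -0.17 to 0.036 over all cells, and in stem III-like cells Ran from -0.20 to 0.032, Ranbp1 from -0.024 to 0.13 and Ranbp2 from -0.095 to 0.060.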

Other observations

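Among the genes whose level ran most like that of Xpo1 over the 17 libraries were Odc1, which makes polyamines (Pearson's r of log2 CPM 0.965), Cant1 (0.957), Gna13 (0.879) and Fam57a (0.867), among 9705 genes with at least 10 UMIs in every library. Those most like Ran were Rbbp7 (0.966), Krr1 (0.963), Rpl15 (0.959), Anp32e (0.957) and the nucleoporin Nup93 (0.954). Among the 8 genes themselves, Ran, Rcc1, Ranbp1 and Rangap1 ran together, with r of 0.920 for Ran and Rcc1, 0.906 for Ran and Ranbp1, 0.935 for Rcc1 and Ranbp1, 0.913 for Ranbp1 and Rangap1, 0.83 for Ran and Rangap1 and 0.786 for Rcc1 and Rangap1. Xpo1 had an r of 0.202 with Ran, 0.415 with Ranbp2 and -0.34 with Ranbp3. These are descriptions over libraries that share a time course, a treatment and differences in depth and cell makeup, and no test was made of them.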
